A study of Mus musculus with 4 samples.

Results

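Chemokines are small secreted proteins that guide leukocytes through G protein-coupled receptors, and each receptor reads a particular set of ligands. Inflammatory chemokines are made on demand and draw monocytes, neutrophils or effector lymphocytes into tissue, whereas homing chemokines position lymphocytes and dendritic cells in steady state. In the heart they are produced by resident macrophages, endothelium, fibroblasts and the epicardial lining, and atypical receptors such as Ackr1 and Ackr3 bind chemokines without the usual signalling.

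The genes described here were 36 listed chemokines and chemokine receptors, 28 ligands and 8 receptors, of 37008 genes named on the array. They were found as all probes whose gene name in the array files equals a listed symbol, which gave 50 of 56605 probes, and the rule uses no measured value. The genes themselves were chosen with earlier results of these data known. RNA from a frozen piece of heart of female C57BL/6J mice, which the labels give as 6 weeks old, was hybridised to 4 single-colour Agilent arrays on 1 slide, 1 array for each condition. The NAC + CY mice received the thiol antioxidant N-acetyl cysteine (NAC, 200 mg/kg) as well as the alkylating agent cyclophosphamide (CY, 400 mg/kg), the CY mice received CY alone at 400 mg/kg, the acrolein mice received the CY metabolite acrolein at 5 mg/kg, and the control mice received normal saline (NS). All were dosed once daily on 2 days, and NAC was injected 2 h before CY. The methods place tissue collection at 3 h after the second dose, although a later time is attached to some gene counts in the results text. The series text mentions 3 independent studies, but 1 array per condition was analysed, and the labels do not say how many animals an array holds.

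Signals are background-subtracted fluorescence in arbitrary units after quantile normalisation, and they can be compared between arrays for 1 probe but not between probes. Upregulated genes had a Z-score of 2 or more together with a ratio of 1.5 or more, and downregulated genes had a Z-score of -2 or less together with a ratio of 0.66 or less. The Z-score says how many SDs a log2 ratio lies from the average of the 200 probes closest to it in brightness. Probes were used where at least 1 of the 2 arrays gave a P flag (present: well above background and free of outlier flags), and the brightest one stands for its gene. With 1 array per condition there is no replicate check and no p-value, and a call describes 2 arrays. The error given with a log2 ratio is that of the 2 spots from the scanner's error model and leaves out the spread between animals. In RNA of heart tissue, fewer cells of a type and less RNA per cell cannot be told apart.

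At least 47.1% of all probes were well above background on each array, and no probe was saturated. The controls Actb and Gapdh had log2 ratios to NS of -0.33 and 0.06 in NAC + CY, 0.02 and 0.05 in CY and 0.00 and -0.03 in acrolein. All 9 cardiomyocyte markers were well above background on every array. Genes of other tissues differed between the arrays. Against NS, NAC + CY had all 7 hepatocyte, 4 of 5 atrial and 5 of 7 adipose markers called higher. CY had 8 of 9 mesothelial, 7 of 9 platelet, all 6 atrial, 2 of 7 adipose and 2 of 3 hepatocyte markers called higher. In acrolein 6 of 7 adipose and 6 of 8 mesothelial markers were called lower, and 1 mesothelial marker higher. There 1 of 3 hepatocyte markers was also called lower, and Dntt, the 1 thymus marker measured, was called higher. The part of these tissues in the chemokine values was not tested.

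The following probe stretches are shown because the results turn on the transcripts they read. Each is the first 30 bases of a 60-base probe from the array files, 5′ to 3′, except for Cxcl11, where bases 17 to 46 are given.
Ccl12: tccttgaaccttcatgtctaggctgagagt
Cxcl10: gctttgcattgtatatggaagaacttgtgt
Cxcl13: gatttattgtcttgcattaaaaccagtaac
Cxcl12, probe for NM_001012477: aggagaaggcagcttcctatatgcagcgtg
Cxcl12, probe for NM_021704: gctgtaaacctcctaccgtatgtgggaatt
Cxcl11: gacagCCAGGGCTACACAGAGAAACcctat
Over its whole length the Cxcl11 probe shared runs of 20 bases, on either strand, with probes of 8 other genes. Capitals mark the run with the most matches, which need not stand in all 8. Of the 50 probes, 2 shared a run of 20 bases with a probe of another gene, and both were Cxcl11 probes, so Cxcl11 values are uncertain. Its brightest probe had log2 ratios to NS between 0.07 and 0.23 and was called in no comparison. The array files place the Ccl12 probe on chromosome 11 from 81916710 to 81916769 and the Cxcl10 probe on chromosome 5 from 92775781 to 92775840, on a build that they do not name. Of the 36 genes, 12 lie on chromosome 11 and 8 on chromosome 5. These are counts for whole chromosomes, and not all of the genes lie close together.

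A P flag on at least 1 array was found for 30 of the 36 genes, and 22 were well above background on every array by a probe. The dendritic cell ligands Ccl17 and Ccl22, the neutrophil attractant Cxcl2, the lymphocyte ligand Xcl1 and the receptors Ccr1 and Cxcr3 had no P flag and gave no ratio. At least 1 comparison called 18 of the 30, and 12 were measured but called in none. None was called in all 3 comparisons with NS, which share the NS array.

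In the NAC + CY heart 1 chemokine gene was called higher and 6 lower than in NS, among 27 measured, against 2.68% of all genes called higher and 2.59% called lower. In the CY heart 5 were called higher and 6 lower among 29, against 3.37% and 2.83% of all genes. In the acrolein heart 7 were called higher and 0 lower among 28, against 1.07% and 1.28% of all genes. NAC + CY compared directly with CY had 2 genes called higher and 4 lower among 27, against 1.54% and 2.81% of all genes. The median log2 ratio of the measured chemokine genes to NS was -0.38 in NAC + CY, -0.33 in CY and 0.19 in acrolein, where the medians of all genes were -0.01, -0.02 and 0.01. Because the genes were chosen with earlier results of these data known, these counts and medians describe the list and are not a test of it.

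**Figure D1:**
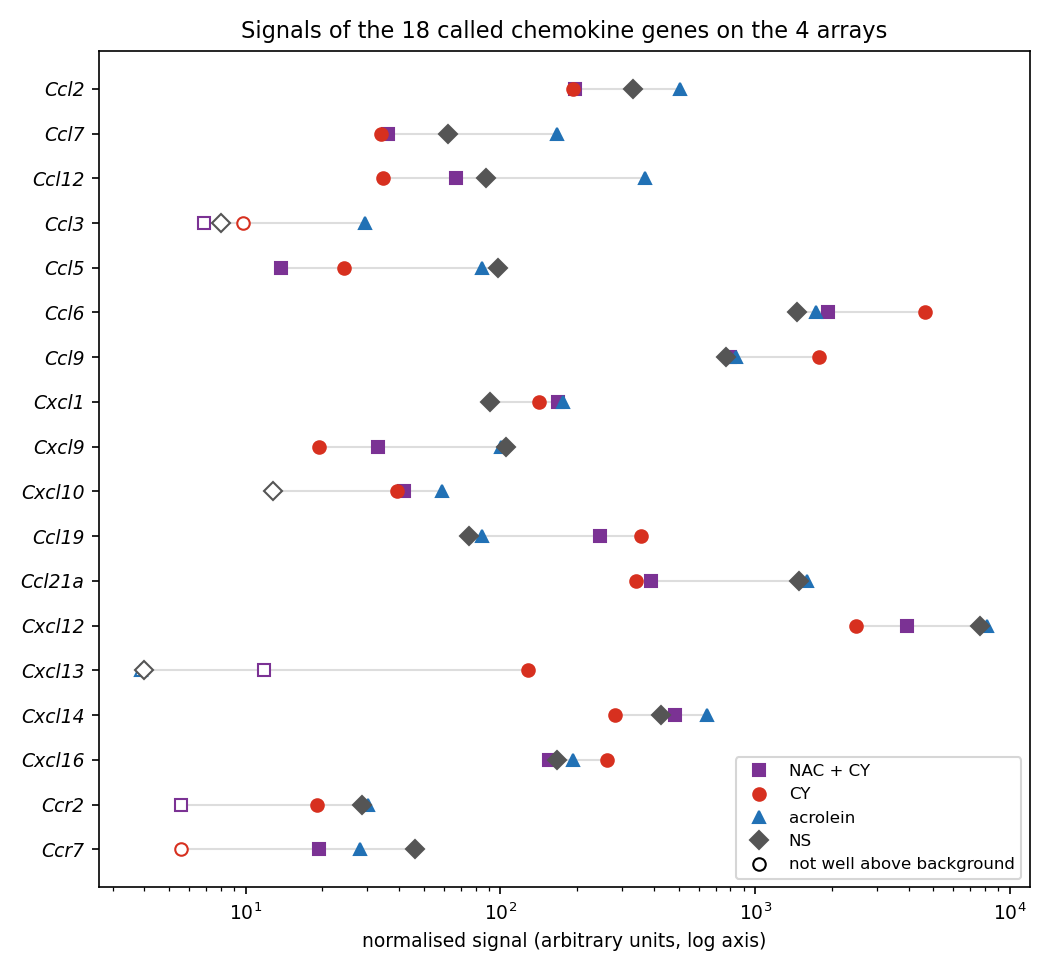
Normalised signal (horizontal log axis, arbitrary units) of the 18 genes called in at least 1 comparison, 1 row per gene, on the NAC + CY (squares), CY (circles), acrolein (triangles) and NS (diamonds) arrays, with open symbols for signals not well above background. Acrolein has the highest signal in the first 4 rows, and CY stands apart for Cxcl13, at 128 against 3.99 in NS.

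The monocyte attractants Ccl2, Ccl7, Ccl8 and Ccl12, of which all but Ccl8 act mainly through the receptor Ccr2, were highest in the acrolein heart, where 3 of the 4 were called higher. Ccl12 had a signal of 67.1 in NAC + CY, 34.7 in CY, 371 in acrolein and 87.4 in NS. Acrolein stood far above the other 3 arrays, and CY lay lowest. The log2 ratio to NS was 2.08 ± 0.21 (spot error) in acrolein and -1.33 ± 0.24 in CY, so that Ccl12 was called in opposite directions on arrays set against the same control. The CY call (Z-score -2.20) ended with a wider window of probes or a Z-score criterion of 3, and held under the other 13 of 15 alternatives. It was -0.38 in NAC + CY and not called.

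Ccl7 had a signal of 36.3 in NAC + CY, 33.8 in CY, 167 in acrolein and 62.2 in NS, and its log2 ratio of 1.43 ± 0.22 in acrolein was called. For Ccl2, the best known monocyte attractant, the signals were 197 in NAC + CY, 192 in CY, 508 in acrolein and 331 in NS. Its log2 ratio of 0.62 ± 0.20 in acrolein corresponds to 1.53-fold, just past the ratio criterion. For both genes NAC + CY and CY lay close together and below NS, with log2 ratios between -0.75 and -0.88 that were not called. Ccl8 was between 58.1 and 72.4 on all 4 arrays.

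Among the other inflammatory CC ligands, the genes moved in different directions. Ccl5, which T cells and natural killer cells express, had signals of 13.8 in NAC + CY, 24.4 in CY, 84.5 in acrolein and 97.6 in NS. The acrolein and NS arrays were close together and the other two far below, with a called log2 ratio of -2.83 ± 0.34 in NAC + CY and a called 3.99-fold lower signal in CY (spot error 0.26 on the log2 scale). Of 11 markers of T and natural killer cells measured, 6 were called lower in NAC + CY and 4 in CY, and none higher. In acrolein 3 of 12 (Cd8b1, Lck and Gzma) were called higher and none lower. The summed signals of the list were 1130 in NAC + CY, 1153 in CY, 1726 in acrolein and 1504 in NS. These sums rest mostly on Cd4 and Cd3e, which were not called. Their log2 ratios were -0.03 and -0.27 in NAC + CY and 0.03 and -0.26 in CY. The part of T and natural killer cells in the Ccl5 values was not tested.

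Ccl6 and Ccl9, neighbouring rodent genes whose products act through Ccr1 and which macrophages express, were high in CY alone. Ccl6 had signals of 1925 in NAC + CY, 4651 in CY, 1736 in acrolein and 1463 in NS. Ccl9 had signals of 796 in NAC + CY, 1778 in CY, 842 in acrolein and 769 in NS. Their log2 ratios to NS in CY were 1.67 ± 0.20 and 1.21 ± 0.20, and both were called. In NAC + CY they were 0.40 and 0.05, which were not called. Of 18 monocyte and macrophage markers measured in CY 1 was called higher (Vsig4) and 1 lower (Cx3cr1), with a list median of 0.14. In NAC + CY 1 of 17 was called higher (Ly6c1) and 2 lower (Csf1r and Cx3cr1), with a list median of -0.32. The summed signals of the list were 96791 in NAC + CY, 92011 in CY, 82444 in acrolein and 74521 in NS, sums that rest mostly on the bright probes of Ly6c1, Ly6c2, Lyz2 and Itgam.

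Ccl3, a product of activated macrophages, was well above background in acrolein only. Its signals were 6.85 in NAC + CY, 9.79 in CY, 29.3 in acrolein and 7.97 in NS, and it was at least 1.78-fold higher in acrolein than in NS. Such bounds are set against the lowest signal well above background on the dim array, which was 16.5 in NS, or the probe's own signal where that is higher. Ccl4, its neighbour, was not called by its brightest probe, with a log2 ratio of 0.70 ± 0.34 in acrolein. Its signal was 32.8 in acrolein and 20.2 in NS, and it was not well above background in NAC + CY or CY. Its other probe, well above background in acrolein only, met the criteria by its measured signals, but the bound was at least 1.43-fold, under the ratio criterion.

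Cxcl1, a neutrophil attractant that acts through Cxcr2, was lowest in NS. The signals were 168 in NAC + CY, 142 in CY, 177 in acrolein and 91.4 in NS. The log2 ratio to NS was called in acrolein, at 0.95 ± 0.21 (Z-score 4.65), and not in NAC + CY, at 0.88 ± 0.21 (Z-score 1.90), or CY, at 0.63 ± 0.21 (Z-score 0.93). The log2 ratios in NAC + CY and acrolein differed by less than either error. The SD of the surrounding probes differed more, with a median of 0.54 log2 units in NAC + CY, 0.58 in CY and 0.21 in acrolein, so that a given ratio reaches the Z-score criterion sooner in acrolein.

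Of the neutrophil markers measured, 6 of 8 were called higher in NAC + CY, 2 of 8 in CY and 4 of 7 in acrolein, and none lower. The calprotectin subunit S100a8 had signals of 714 in NAC + CY, 221 in CY, 435 in acrolein and 56.2 in NS. The other Cxcr2 ligand that gave a ratio, Cxcl5, was well above background in CY only, at 16.8, and was not called.

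The interferon-induced ligands of the receptor Cxcr3 parted. Cxcl9 had signals of 33.2 in NAC + CY, 19.4 in CY, 101 in acrolein and 105 in NS, and was called lower in NAC + CY (log2 ratio -1.67 ± 0.24) and CY (-2.44 ± 0.28). Cxcl10 had signals of 41.8 in NAC + CY, 39.3 in CY, 58.7 in acrolein and 12.8 in NS, where it was not well above background. It was highest in acrolein and lowest in NS and, unlike Cxcl9, lay above NS on both arrays that received CY. Cxcl10 was at least 2.38-fold higher in CY and at least 3.56-fold higher in acrolein than in NS, both called. In NAC + CY it was at least 2.54-fold higher with a Z-score of 1.96, just under the criterion.

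Other interferon-response genes also went both ways in CY, with 5 of 26 called higher and 4 lower. Among them Isg15, a ubiquitin-like protein, had a log2 ratio of 1.09, and the class II transactivator Ciita, not well above background in CY, was at least 3.59-fold lower. In acrolein 1 of 26, the guanylate-binding protein Gbp6, was called, at 0.85. Of the genes that respond to inflammatory cytokines and NF-κB, 5 of 20 were called higher in acrolein, 2 of 19 in CY and 4 of 21 in NAC + CY, where 2 were called lower. The 5 in acrolein were Il1b, Nfkbiz, Icam1, Socs3 and Bcl3.

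**Figure D2:**
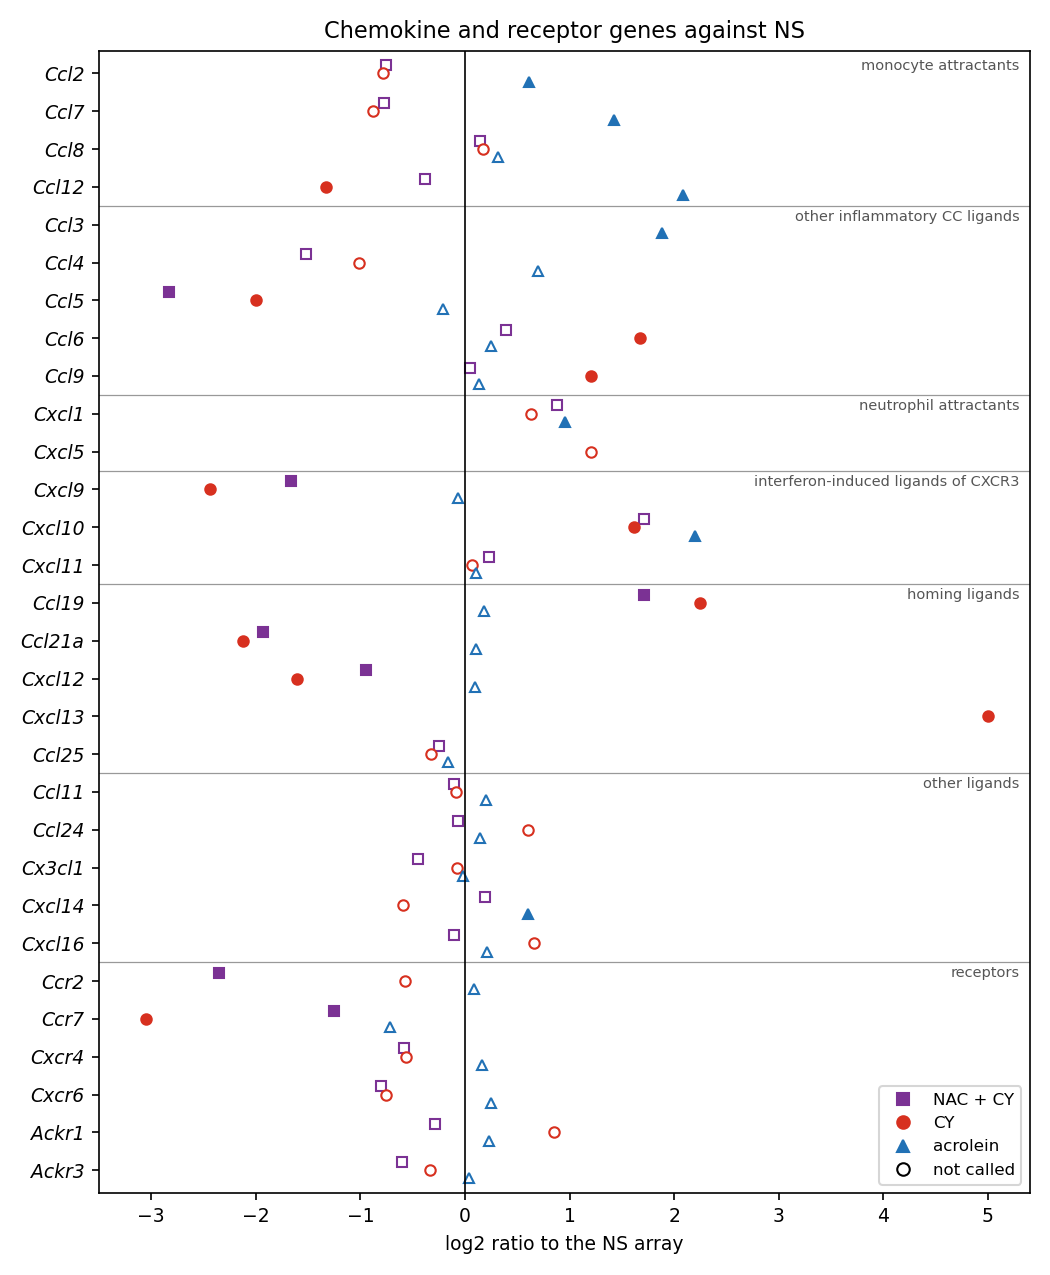
Log2 ratio to the NS array (horizontal axis) of the 30 measured chemokine and receptor genes in NAC + CY (squares), CY (circles) and acrolein (triangles), with rows grouped by role and filled symbols for called genes. Acrolein has called genes only to the right of 0, whereas NAC + CY and CY have filled symbols on both sides, down to -2.83 for Ccl5 and -3.05 for Ccr7, and genes not well above background on 1 array, such as Cxcl13 and Ccr7 in CY, are drawn at their measured ratio.

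Of the homing ligands measured, 1 of 4 was called higher and 2 lower in NAC + CY, 2 of 5 higher and 2 lower in CY, and none of 4 in acrolein. Ccl19 and Ccl21a both act through Ccr7, which draws dendritic cells and naive T cells to lymphoid tissue. Ccl19 had signals of 245 in NAC + CY, 356 in CY, 84.7 in acrolein and 74.9 in NS, with called log2 ratios of 1.71 ± 0.21 in NAC + CY and 2.25 ± 0.21 in CY. Ccl21a, a product of lymphatic endothelium, had signals of 391 in NAC + CY, 342 in CY, 1603 in acrolein and 1487 in NS.

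Its log2 ratios were -1.93 ± 0.20 in NAC + CY and -2.12 ± 0.20 in CY, both called, so the ligands of 1 receptor moved in opposite directions. Both genes have near-identical copies in the mouse genome, and whether the probes also read these was not tested, so the values are uncertain. Of the other lymphatic endothelial markers, Lyve1 had a log2 ratio of 1.89 and Pdpn of 1.20 in CY, called higher, Reln was called lower in CY, and Prox1 was at -0.12 and not called. In NAC + CY, Ccl21a was the 1 gene called among the 7 on that list.

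Cxcl12, the ligand of Cxcr4 and Ackr3 that holds progenitors and lymphocytes in tissue, was lowest in CY. By its brighter probe the signals were 3943 in NAC + CY, 2496 in CY, 8162 in acrolein and 7615 in NS, with called log2 ratios of -0.95 ± 0.20 in NAC + CY and -1.61 ± 0.20 in CY. The other probe, for NM_021704, had signals of 182 in NAC + CY, 160 in CY, 242 in acrolein and 254 in NS. It had the same order of NAC + CY and CY below NS but smaller log2 ratios, -0.48 and -0.66, and was not called.

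Cxcl13, which attracts B cells through Cxcr5, was well above background in CY alone. Its signals were 11.8 in NAC + CY, 128 in CY, 3.89 in acrolein and 3.99 in NS. It was at least 7.76-fold higher in CY than in NS. Mesothelial, platelet and atrial markers, the macrophage marker Vsig4 and the dendritic marker Cd207 were also high in CY. The summed signals of the mesothelial list were 2700 in NAC + CY, 10515 in CY, 1544 in acrolein and 2630 in NS. Those of the B cell list were 242 in NAC + CY, 257 in CY, 414 in acrolein and 387 in NS. The part of these cells in the Cxcl13 value was not tested. Ccl25, a ligand of Ccr9, stayed between 180 and 226 and was not called.

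Of the other ligands, Cxcl14, which epithelia and fibroblasts make, had signals of 486 in NAC + CY, 282 in CY, 647 in acrolein and 427 in NS. The acrolein array was highest and CY lowest, and the log2 ratio of 0.60 ± 0.20 in acrolein was called. The membrane-bound chemokine Cxcl16 had signals of 155 in NAC + CY, 262 in CY, 192 in acrolein and 166 in NS, and was called in no comparison with NS. The eotaxins Ccl11 and Ccl24 and fractalkine (Cx3cl1) were called in none, with log2 ratios to NS between -0.45 and 0.60.

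Among the 6 receptors of the member list that were measured, none was called higher than in NS. Of all genes 2.68% were called higher in NAC + CY, 3.37% in CY and 1.07% in acrolein. With 6 genes, no call lies close to these shares. Ccr7 had signals of 19.4 in NAC + CY, 5.59 in CY, 28.1 in acrolein and 46.2 in NS. NS was highest and CY was not well above background. Ccr7 was called lower in NAC + CY (log2 ratio -1.26 ± 0.31, Z-score -2.01) and was at least 3.6-fold lower in CY. In acrolein its log2 ratio was -0.72 with a Z-score of -1.91, just short of a call. Dendritic and MHC class II markers were lower beside it, with 4 of 6 called lower in NAC + CY (list median -2.46) and 4 of 7 in CY (-1.54, with Cd207 called higher). The 4 were H2-Aa, H2-Ab1, H2-Eb1 and Cd74, all of the MHC class II part of the list. Flt3 and Zbtb46 were not called, and Itgax, Xcr1, Clec9a and Cd209a had no P flag. The part of the cells that express these markers in the Ccr7 values was not tested.

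Ccr2, the receptor of the monocyte attractants, had signals of 5.57 in NAC + CY, 19.1 in CY, 30.3 in acrolein and 28.6 in NS. It was below the background limit in NAC + CY, at least 2.28-fold lower than in NS, and was called there but not in CY. This call in NAC + CY ended under 3 of 14 alternatives (normexp, a Z-score centred on 0 and a Z-score criterion of 3). Cxcr4 (signals between 18.1 and 30.4), Cxcr6 (11.8 to 24.4), Ackr1 (20.1 to 44.3) and Ackr3 were called in no comparison. Ackr3, which scavenges Cxcl12, had signals of 3004 in NAC + CY, 3617 in CY, 4690 in acrolein and 4553 in NS.

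A list of 34 further genes of the chemokine system gave 15 with a P flag. The fractalkine receptor Cx3cr1, a marker of monocytes and resident macrophages, had signals of 21.6 in NAC + CY, 28.2 in CY, 438 in acrolein and 417 in NS. It was far lower on both arrays that received CY, with log2 ratios of -4.27 and -3.89, whereas its ligand Cx3cl1 was at -0.45 and -0.07. The platelet chemokine Ppbp had signals of 32.0 in NAC + CY, 763 in CY, 45.8 in acrolein and 65.5 in NS. Ppbp and the platelet chemokine Pf4 (log2 ratio 1.05) were called higher in CY, and Ccr8 in NAC + CY (1.40) and CY (1.79). The scavenging receptor Ackr4 was called lower in NAC + CY, and none of the list was called in acrolein.

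**Figure D3:**
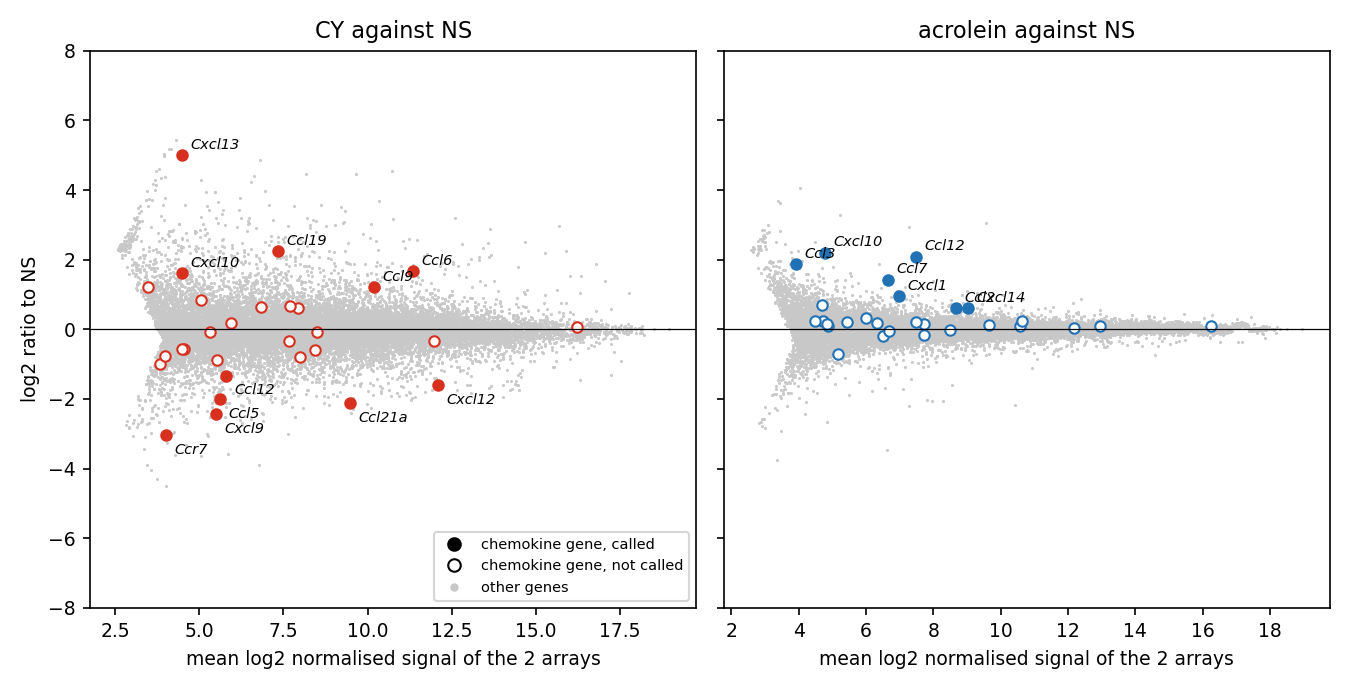
Log2 ratio to NS (vertical axis) against mean log2 normalised signal of the 2 arrays (horizontal axis) for CY and acrolein, with all measured genes in grey, called chemokine genes filled and named, and the others open. The grey cloud is wider in CY, and the 7 called chemokine genes in acrolein all lie above 0, with Cxcl10 and Ccl3, not well above background in NS, drawn at their measured ratio.

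NAC + CY was also set directly against CY, which shows what differed between 2 arrays that both received CY. Ccl6 (log2 ratio -1.27 ± 0.20), Ccl9 (-1.16 ± 0.20) and Cxcl16 (-0.76 ± 0.21) were called lower, and Cxcl13 was at least 10.2-fold lower. Cxcl12 (0.66 ± 0.20) and Cxcl14 (0.78 ± 0.20) were called higher. The second Cxcl16 probe was also called, at -0.83, whereas the second Cxcl12 probe was at 0.18 and was not. Ccl5, Cxcl9, Ccl19, Ccl21a and Ccr7, called against NS on both arrays, were not called between them.

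**Figure D4:**
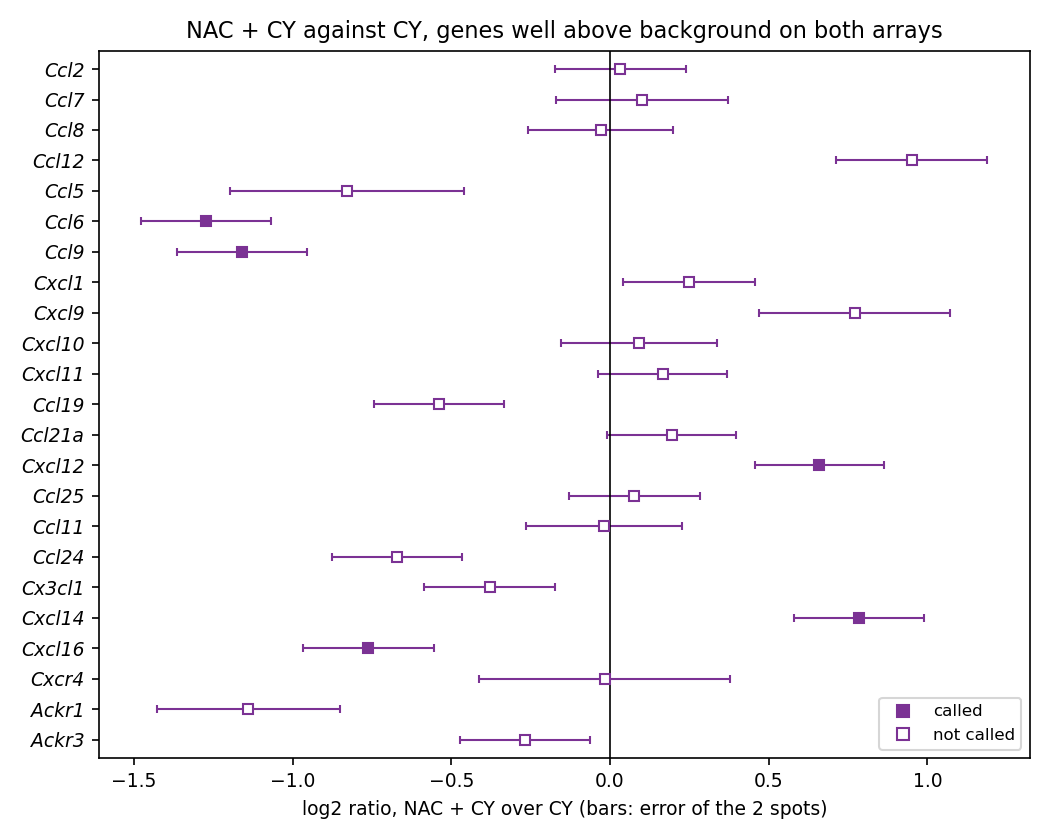
Log2 ratio of NAC + CY over CY (horizontal axis) for the 23 measured genes well above background on both arrays, with bars for the error of the 2 spots and filled symbols for called genes. Ccl6 and Ccl9 lie farthest to the left, at -1.27 and -1.16, and Cxcl13 is not drawn because it was not well above background in NAC + CY.

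In the same comparison 9 of 10 mesothelial, 6 of 9 platelet, 5 of 6 atrial, 5 of 18 monocyte and macrophage, 5 of 6 dendritic and 5 of 8 fibroblast markers were called lower. Of hepatocyte markers 6 of 7, of adipose markers 5 of 7 and of neutrophil markers 4 of 9 were called higher. From these lists 1 hepatocyte marker (Ahsg) and 1 neutrophil marker (Camp) were called lower. The macrophage genes were Adgre1, Cd163, Lyz2, C1qb and Vsig4, and the dendritic genes were Cd207 and the MHC class II markers H2-Aa, H2-Ab1, H2-Eb1 and Cd74. The part of these cells in the Ccl6, Ccl9 and Cxcl13 values was not tested.

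Some calls ended under another processing. Ccl2 and Cxcl14 in acrolein were no longer called when arrays were centred on the median or corrected by normexp, and Ccl3 in acrolein was no longer called with normexp or with a floor at the background limit. Ccr7 in NAC + CY lost its call under 8 of 15 alternatives, and Cxcl10 in CY under 4 of 14. Between NAC + CY and CY, Cxcl16 lost its call under 5 of 15 alternatives and Cxcl14 under 4 of 15. By contrast Ccl12, Ccl7 and Cxcl10 in acrolein, and Ccl6, Ccl19, Ccl21a, Cxcl9, Cxcl12, Cxcl13 and Ccr7 in CY, kept theirs under every alternative that was run. For Cxcl10 in acrolein and for Cxcl13 and Ccr7 in CY these were 14 alternatives and not 15. These 3 genes had a P flag on only 1 of the 2 arrays, so they gave no ratio where both were required.

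Promoters from RefSeq (GRCm38.p6) were found for 26 of the 36 genes, 27 promoters in all, and the 250 bases before each start were searched on both strands for 5 motifs. The interferon-stimulated response element core (GAAA, any 2 bases, GAAA) stood in Ccl19, Cxcl10 and Cxcl14, against 2.98% of all 32851 promoters. The kappaB-type site (GGG, any 2 bases, TTTCC) stood in Ccl9, Cxcl1 and Cxcl2, against 1.41%. Only this form was searched, so other kappaB-type sequences, in Cxcl10 or elsewhere, are neither counted nor marked. The gamma-activated core (TTC, any 3 bases, GAA) stood in Ccl17 and Cxcl14 (7.02%), the AP-1 site TGACTCA in Cxcl10 (4.46%), and TATAAA in 9 genes (12.4%). A match is a description of letters and not a bound site. The stretches below were chosen because they hold matches, which are in capitals, 5′ to 3′ on the strand of the gene, at chr5:92348947-92349112 (minus strand) for Cxcl10 and chr5:90891140-90891199 (plus strand) for Cxcl1.
Cxcl10: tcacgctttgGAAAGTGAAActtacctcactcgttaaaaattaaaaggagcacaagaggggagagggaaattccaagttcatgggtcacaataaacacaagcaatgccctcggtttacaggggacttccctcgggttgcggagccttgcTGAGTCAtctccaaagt
Cxcl1: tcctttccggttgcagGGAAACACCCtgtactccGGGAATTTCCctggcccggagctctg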

How the data were processed

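Spot signals were obtained by the authors with Feature Extraction (Agilent). The submitters' processing notes give version 9.5.1.1, and the file headers give 10.7.1.1. The deposited intensity values are background-subtracted signals of each spot, not yet normalised, with the scanner's error beside them. The authors' value table of the series holds quantile-normalised linear signal values of the same arrays and was used as an alternative. Here, log2 signals of 59305 non-control spots were quantile-normalised over the 4 arrays. Repeated spots of 1 probe were then averaged. The methods name the quantile algorithm for each treatment with its control, without saying whether arrays were taken in pairs. The window of 200 probes for the Z-score is not given in the methods. Genes were named through the RefSeq gene table of GRCm38.p6 by accession (32994 probes), symbol (10224) or synonym (520), and the file's own name was retained for 12867 probes. Their positions were not on GRCm38, since only 9.92% of 43633 probes lay inside their gene there. The number of arrays limits the precision.

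The genes, roles and marker lists were chosen with earlier results of these data known, and 1 gene of the further list is not reported here. Values on all arrays are given for each member called in at least 1 comparison, and the other measured members by single values, or by the range of their signals or ratios. Simulated data with known changes were used to test how genes are called. The motifs were chosen after the data were seen. Python 3.11.15, numpy 2.4.6, pandas 2.3.3 and matplotlib 3.10.9 served for the computations, and the normexp correction used R 4.3.3 with limma 3.58.1 and an offset of 50.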

Additional observations from a re-analysis of the deposited data

Results flagged for a closer look

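Ccl12 was called in opposite directions in 2 comparisons, with a log2 ratio to NS of 2.08 in acrolein and -1.33 in CY. The CY call ended with a wider window of probes or a Z-score criterion of 3. Both ratios use the same NS array, 1 array stands for each condition, and the difference between the 2 ratios was not tested.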

How the results depend on the processing

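Called genes kept their call in 414 of 458 repeats under an alternative, and 16 of 31 calls held in all of them. Repeats in which a gene gave no ratio were not counted. No called ratio changed sign. In NAC + CY against NS, 1 gene was higher, against 3 by ratio alone and 2 with the value table, and 6 were lower, against 3 at a Z-score of 3 and 11 by ratio alone. The median there was -0.38, and -0.16 with normexp. In CY against NS, 5 were higher, against 3 with a P flag on both arrays, 3 at a Z-score of 3 and 10 by ratio alone, and 6 were lower, against 10 by ratio alone. In acrolein against NS, 7 were higher, against 4 with normexp and 4 at a ratio of 2, and 0 were lower, against 1, Ccr7, with 75th percentile scaling, median centring, a window of 100 probes or ratio alone. Median centring gave 5 higher and 1 lower there. In NAC + CY against CY, 2 were higher, against 1 with normexp, 0 at a Z-score of 3, a ratio of 2 or the median over probes, and 5 by ratio alone, and 4 were lower, against 9 by ratio alone. Over all genes, acrolein had 208 called higher and 250 lower, against 46 and 60 with normexp and 170 and 318 with median centring, which moved the median of all genes in CY to -0.15. The cause was not tested. Dim genes have wide windows, so that changes near the background limit can be missed. No paired analysis was possible because each condition has 1 array.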
